A study of Mus musculus with 8 samples.

Results

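The regions described here are stretches of liver chromatin that were open in control mice, were not found open in mice without hepatocyte Dio2, and lay far from any protein-coding gene. They were taken from the list of regions open only in control liver, called RCAs for reduced chromatin accessibility. An RCA was kept when it overlapped no gene body of any type, no window of 200 bp on either side of an annotated transcript start, and lay over 50 kb, edge to edge, from the nearest protein-coding gene body in the GENCODE M21 annotation of mm10. This rule kept 430 of 8031 RCAs, which is 5.35% (95% Wilson interval 4.88 to 5.87). Among the 2437 RCAs that were intergenic, 17.6% (16.2 to 19.2) were far from coding genes in this sense. The others comprised 788 within 5 kb of a coding gene, 1212 at 5 to 50 kb, and 7 on scaffolds without a coding gene. The same rule kept 25 of 250 regions of the reverse list, those open in Alb-D2KO liver and not in control.

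Chromatin accessibility was measured by ATAC-seq, in which a transposase inserts sequencing adapters into open DNA, in 4 control and 4 Alb-D2KO libraries of 50000 liver nuclei each. All mice were adults, labelled C57BL/6, with C57BL/6J given in the methods of the study. The Alb-D2KO mice carried floxed Dio2 alleles and Cre recombinase under the albumin promoter, so that Dio2 was inactivated in hepatocytes, and the control libraries carry the word cre in their titles. The lists hold no gene expression, so neither the inactivation of Dio2 nor the tissue could be checked against marker genes.

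Type 2 deiodinase, the product of Dio2, converts thyroxine to T3, the hormone that acts through nuclear thyroid hormone receptors. Distal enhancers are short accessible stretches of DNA where transcription factors bind, and they can act on a gene over long distances by chromatin looping. In hepatocytes such elements are typically bound by factors of the HNF, FOXA and C/EBP families. Whether a far region is an enhancer cannot be read from accessibility alone.

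Each list came from one call on libraries grouped by the authors, so a region has one value and no error between animals, and nothing below is a test between genotypes. The depth of each library is unknown from the lists. A region is described by its AUC, the area under the curve of the −log10 p signal that the peak caller accumulated over the region, and every region deposited had an AUC of at least 200. The numbers that the caller gave regions ran, counted from 0, over 22368 values in the control list and 14825 in the Alb-D2KO list. RCAs took 35.9% of the control numbers, and regions absent from control took 1.69% of the Alb-D2KO numbers. Whether every number stood for a region of the final call is not known from the lists, so both shares are approximate. These are the contrasts that chose the regions, so their direction is given by the choice.

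The sequences below show the strongest far RCA, the next strongest, the strongest beside 4 genes named later, and the RCA farthest from any coding gene. Each is the plus strand of GRCm38/mm10, 5′ to 3′, for 75 bases on either side of the summit base, named by the coding genes to its left and right. Capitals mark matches to any of 14 motifs searched on both strands.
Irf2bp2/Tomm20 chr8:126805857-126806007: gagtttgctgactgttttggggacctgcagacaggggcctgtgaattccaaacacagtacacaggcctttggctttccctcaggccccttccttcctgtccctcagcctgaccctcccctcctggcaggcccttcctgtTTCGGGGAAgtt
Cebpb/Ptpn1 chr2:167853426-167853576: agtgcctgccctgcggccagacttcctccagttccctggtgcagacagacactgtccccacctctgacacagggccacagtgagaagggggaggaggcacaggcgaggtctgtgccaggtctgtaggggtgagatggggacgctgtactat
Nr2f2/Gm10295 chr7:70524797-70524947: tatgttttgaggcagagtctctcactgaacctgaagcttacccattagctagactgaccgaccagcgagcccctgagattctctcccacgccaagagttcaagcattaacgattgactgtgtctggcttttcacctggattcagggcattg
Wdr5/Rxra chr2:27625046-27625196: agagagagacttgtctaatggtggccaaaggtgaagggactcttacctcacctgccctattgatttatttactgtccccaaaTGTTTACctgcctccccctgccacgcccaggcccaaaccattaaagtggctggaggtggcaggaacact
Wdr72/Onecut1 chr9:74671654-74671804: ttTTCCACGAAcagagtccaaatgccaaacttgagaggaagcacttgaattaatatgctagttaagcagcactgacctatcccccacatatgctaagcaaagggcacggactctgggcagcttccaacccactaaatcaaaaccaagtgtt
Myc/Gsdmc chr15:62533433-62533583: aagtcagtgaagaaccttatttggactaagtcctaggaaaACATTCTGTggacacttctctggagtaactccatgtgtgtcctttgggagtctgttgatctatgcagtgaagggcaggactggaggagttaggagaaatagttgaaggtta
Tmem132b/Tmem132c chr5:126531301-126531451: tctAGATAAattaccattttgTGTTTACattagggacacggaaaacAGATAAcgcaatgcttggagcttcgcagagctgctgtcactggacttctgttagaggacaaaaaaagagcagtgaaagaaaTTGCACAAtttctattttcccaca
The window between Irf2bp2 and Tomm20 holds one match to TTCCNNGAA, the STAT5 motif, and none for the liver-enriched factors searched. The windows between Cebpb and Ptpn1 and between Nr2f2 and Gm10295 hold no match at all. In the window of the farthest RCA, TGTTTAC (FOXA), TTGCNNAA (C/EBP) and a pair of AGATAA matches (GATA) lie within the same 151 bases.

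The next sequences show, for the motifs of liver-enriched factors and for CTCF, the strongest far RCA that holds a match, with 15 bases on either side of the match, again on the plus strand of GRCm38/mm10. The matched letters are in capitals and may be on either strand.
C/EBP, Cxcl12/Zfp637 chr6:117300024-117300061: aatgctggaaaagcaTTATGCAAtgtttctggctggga
FOXA, Wdr5/Rxra chr2:27625113-27625149: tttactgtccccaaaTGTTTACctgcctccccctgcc
HNF1, Btg1/Dcn chr10:96686963-96687002: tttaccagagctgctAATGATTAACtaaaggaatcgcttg
HNF4, Lsm3/Slc6a6 chr6:91615217-91615255: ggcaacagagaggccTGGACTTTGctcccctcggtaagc
DR1, Fam49a/Mycn chr12:12814736-12814778: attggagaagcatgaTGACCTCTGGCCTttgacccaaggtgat
DR4, Gjb5/CK137956 chr4:127522352-127522397: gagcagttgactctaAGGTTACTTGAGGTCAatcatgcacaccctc
CTCF, Dach1/Rpl36a-ps1 chr14:98863881-98863922: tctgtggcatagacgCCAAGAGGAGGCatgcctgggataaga
The HNF1 motif was GTTAAT followed by ATT after 1 free base, and the HNF4 motif was CAAAGTCCA, both without a mismatch. DR1 and DR4 are direct repeats of AGGTCA with 1 or 4 bases between them, searched with up to 1 mismatch. DR4 is the arrangement preferred by thyroid hormone receptor paired with RXR, and the RCA between Gjb5 and CK137956, with an AUC of 229, was the 1 far RCA of 430 that held it within 300 bp around the summit. Searched over the whole region instead, DR4 was in 0.930% of far RCAs. A match is a description of the letters and not evidence of binding.

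Far RCAs were sparse. Sequence over 50 kb from coding genes made up 31.6% of chromosomes 1 to 19 and X (809 Mb) and held 0.532 RCAs per Mb. The density was 2.98 per Mb in intergenic sequence at 5 to 50 kb, 6.25 within 5 kb, 3.41 in gene bodies and 42.1 in promoter windows. Promoter and gene-body RCAs were counted on any overlap, but the sequence only by bases inside. This raises their densities, most in the short promoter windows. Far sequence was thus the class with the lowest density of lost regions of the 5. Regions open only in Alb-D2KO liver were also least dense there, at 0.0297 per Mb (24 regions). For each far region open only in Alb-D2KO liver there were 17.9 far RCAs, against 37.8 at 5 to 50 kb, 39.4 within 5 kb, 38.8 in gene bodies and 25.6 in promoters. The ratio was lowest in far sequence, where it rests on those 24 regions, and the difference between classes was not tested.

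**Figure D1:**
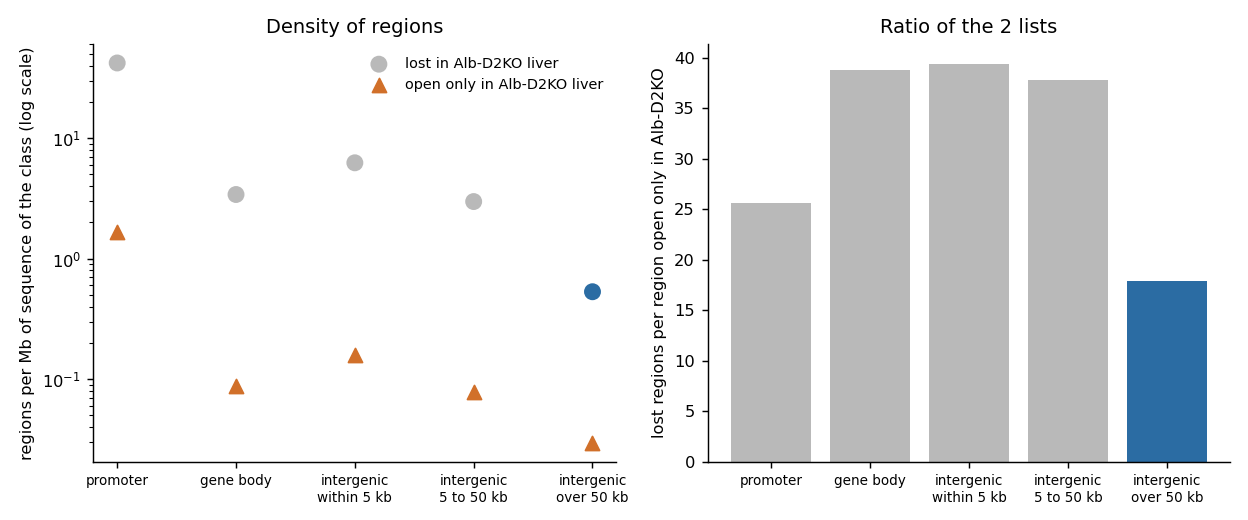
Left, regions per Mb of sequence of each class on a log scale, with circles for lost regions (blue for the far class) and triangles for regions open only in Alb-D2KO liver. Right, the ratio of both counts. The far class has 0.532 lost regions per Mb and a ratio of 17.9, the lowest of the 5 classes on both scales.

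The AUC of the far RCAs ran from 200 to 887 with a median of 262, and the middle of the distribution spanned 226 to 338. The median was 270 at 5 to 50 kb, 277 within 5 kb, 273 in gene bodies and 304 in promoters. An AUC of at least 300 was reached by 147 far RCAs, 34.2% (29.9 to 38.8), against 38.6% (35.9 to 41.4) at 5 to 50 kb and 40.8% (39.7 to 41.9) of all RCAs. The 95% interval of the far median, 252 to 271, held the median of the class at 5 to 50 kb and lay below those within 5 kb, in gene bodies and in promoters. AUC sums over the width of a region. The median AUC per bp was 0.937 in the far class, below 0.978 at 5 to 50 kb and 0.981 within 5 kb but above 0.916 in gene bodies and 0.812 in promoters, so the order of the classes depended on the measure. Their median width was 302 bp, from 144 to 1117 bp, against 326 bp over all RCAs and 392 bp in promoters. Median GC content was 49.1%, below the 50.8% at 5 to 50 kb and well below the 60% of promoter RCAs. The ratio of observed to expected CpG dinucleotides was 0.228 in the far class and 0.624 in promoters, so the far RCAs did not have the CpG-rich composition of promoters.

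Repeat-masked sequence made up 7.23% of the median far RCA, and 135 of the 430 held none. In 22 far RCAs, 5.12% (3.40 to 7.62), repeats covered more than 50% of the region, against 2.02% (1.73 to 2.35) of all RCAs. At 5 to 50 kb the share was 3.14% (2.30 to 4.28), with an interval that overlapped that of the far class. For 6 far RCAs a near-identical stretch was found at another place in mm10, 1.40% (0.641 to 3.01), against 0.536% of all RCAs and 0.496% (0.227 to 1.08) at 5 to 50 kb. All 6 had AUCs from 215 to 238, and 4 of them lay between the start of chromosome 13 or 16 and the first coding gene. How reads were placed in these 6 was not tested.

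The median distance to the nearest coding gene was 97.8 kb. It was 50 to 100 kb for 223 far RCAs, 100 to 200 kb for 125, 200 to 500 kb for 74 and more for 8. The median AUC of these bands was 267, 260, 251 and 229, a small decline that for the last band rests on 8 regions. The nearest coding gene had its start, rather than its end, turned toward the region in 256 cases, 59.5% (54.8 to 64.1). Far RCAs of the same gap often share this gene, so the interval, which treats regions as independent, is likely too narrow. The share expected for far sequence was not computed. Most far RCAs were not far from every annotated transcript. The nearest gene of any type was a lincRNA gene for 187 and a processed pseudogene for 126, and the median distance to it was 21.2 kb. No gene of any type lay within 50 kb of 98 far RCAs. A promoter RCA lay within 100 kb of 47 far RCAs and within 500 kb of 189.

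**Figure D2:**
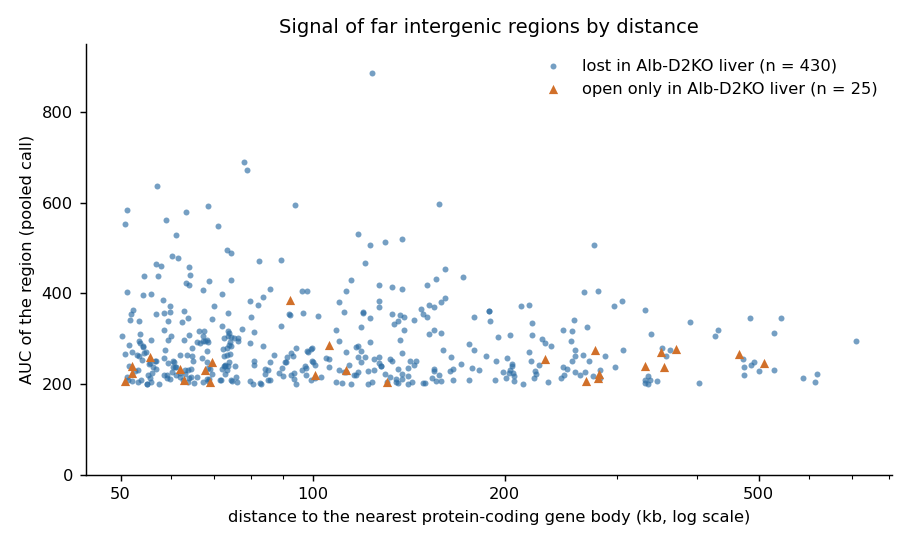
AUC of each far region against the distance to the nearest protein-coding gene body on a log scale, with circles for the 430 lost regions and triangles for the 25 open only in Alb-D2KO liver. Lost regions reach an AUC of 887, and the highest AUC of the other list is 385.

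The 5 RCAs farthest from a coding gene all lay in gaps over 1 Mb long. The farthest, chr5:126531294-126531765, was 710 kb from Tmem132c and 739 kb from Tmem132b, genes for transmembrane proteins, and had an AUC of 294. Between Sorcs3 and Sorcs1, genes for sorting receptors, an RCA with an AUC of 222 lay 618 kb from the former. Another with an AUC of 204 lay 613 kb from Cdh7, a cadherin gene, on the side of Serpinb8. Between Fat4 and Intu an RCA with an AUC of 213 lay 586 kb from Intu. The strongest of the 5, with an AUC of 345, lay 543 kb from Myc, the gene of a transcription factor that drives growth, and 1242 kb from Gsdmc. Sorcs3, Cdh7 and Intu thus had far RCAs near the low end of the AUC range, and the regions beside Myc and Tmem132c were above the median.

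At the limit of the rule, the RCAs just inside lay 50.3 kb from a coding gene between Ercc4 and Mrtfb (AUC 305), 50.9 kb beside Dennd1b (267), 50.9 kb from Igfbp2 (553), 51.1 kb from Rxra (583) and 51.2 kb between Rbpms and Dctn6 (403). Those just outside lay 49.6 kb from a coding gene beside Foxp4 (277), 49.7 kb beside Plod2 (243), 49.9 kb between Nr5a2 and Ptprc (555) and 49.9 kb between Pdzd8 and Emx2 (401). The AUCs on both sides of the limit overlapped. Within 10 kb of it, 67 regions lay inside and 93 outside.

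Far RCAs were spread over all 20 chromosomes counted, unevenly. Chromosome 13 had the most, with 46, which is 40% of its 115 intergenic RCAs and 1.24 per Mb of far sequence. The next densities were 0.860 per Mb on chromosome 17 and 0.848 on chromosome 2, which had 39. Chromosome X had 1 far RCA in 69.8 Mb of far sequence, or 0.0143 per Mb. It had few RCAs of any class, 40 in all. Of the autosomes, chromosome 14 had the lowest density, 0.262 per Mb, with 11 far RCAs.

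**Figure D3:**
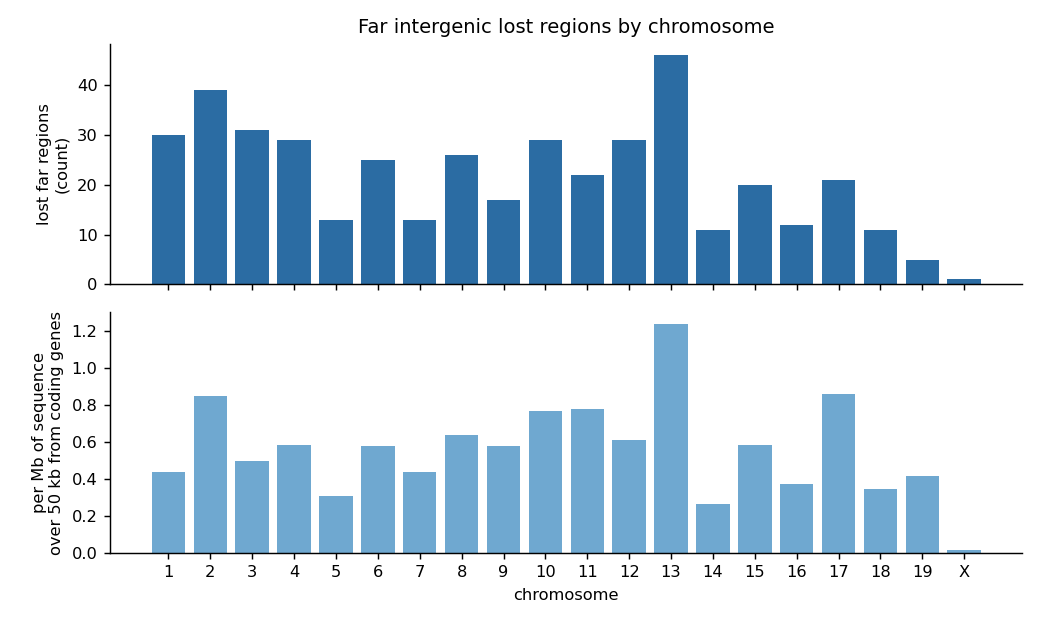
Number of far RCAs on each chromosome (top) and the number per Mb of sequence over 50 kb from coding genes (bottom). Chromosome 13 stands highest on both, with 46 regions and 1.24 per Mb, and chromosome X lowest, with 1 region.

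Many far RCAs shared a gap between neighbouring coding genes. The 430 regions lay in 281 such gaps, of which 203 held 1 far RCA, 44 held 2, 19 held 3 and 15 held 4 or more. Those 15 gaps held 82 far RCAs. Joined where the space between neighbours was at most 50 kb, the far RCAs formed 330 groups, of which 265 were a single region and 65 held 165 regions together. Far RCAs with at least 3 others in their gap had a median AUC of 297, against 263 for those with 1 or 2 others and 250 for those alone. The median width followed the same order, at 358, 295 and 288 bp.

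The gap with the most far RCAs lay between Cebpb and Ptpn1. Cebpb encodes the transcription factor C/EBPβ of the acute-phase and metabolic response. Ptpn1 encodes a tyrosine phosphatase that dampens insulin signalling. This gap of 242 kb held 10 far RCAs with AUCs from 206 to 690. They began 69.6 kb from Cebpb and ended 65 kb from Ptpn1. The AUC was highest at 3 of them. One was chr2:167761642-167762198 with 549, and the others were the neighbours chr2:167852233-167853089 with 672 and chr2:167853230-167853890 with 690, which lay 162 and 163 kb from Cebpb. GC content was 51.3% or higher in all 10.

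Between Irf2bp2, which encodes a transcriptional corepressor, and Tomm20, which encodes a receptor of the mitochondrial import machinery, lay 8 far RCAs. One of them, chr8:126805317-126806433, was both the strongest (AUC 887) and the widest (1117 bp) of all far RCAs. It lay 211 kb from Irf2bp2 and 124 kb from Tomm20. Its neighbour chr8:126807288-126807861 had an AUC of 506, and the other 6 of the gap had AUCs from 208 to 408. A single region thus set this gap apart, and the median AUC of the gap was 244.

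Between Gadd45g, a stress-induced gene of growth arrest, and Diras2, 7 far RCAs stretched over 321 kb with AUCs from 214 to 405. They lay in 4 places, 54.3 to 62.9 kb, 212 to 221 kb, 305 kb, and 374 to 375 kb from Gadd45g. Between Id2, the gene of an inhibitor of basic helix-loop-helix factors, and Rnf144a, 5 far RCAs lay 124 to 187 kb from Id2 and the other 2 lay 719 and 731 kb away. Between Slc45a1 and Errfi1, an inducible inhibitor of EGF receptor signalling, 7 far RCAs had AUCs from 263 to 596. Their highest values, 596 and 592, were at chr4:150745854-150746550 and chr4:150784690-150785425, 107 and 68.5 kb from Errfi1.

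The other gaps with at least 4 far RCAs held 5 or 4 each. Slc1a4 and Sertad2 flanked 5 with AUCs from 272 to 580, and Serp2 and Lacc1 flanked 5 with AUCs from 214 to 304. On chromosome 17, 5 far RCAs lay within 18.0 kb between the chromosome start and Scaf8, the first coding gene. Repeats covered 53.6 to 73.9% of each of these 5, and 4 of the 9 numbered control regions in their span were not RCAs. The 7 gaps with 4 each were Btg1 to Dcn, Gli2 to Inhbb, Maf to Dynlrb2, Nr2f2 to Gm10295, Pcsk1 to Ell2, Phlda1 to Krr1 and Wdr72 to Onecut1. Nr2f2 encodes the nuclear receptor COUP-TFII and Onecut1 the hepatocyte factor HNF6. In the Nr2f2 gap, chr7:70524784-70525147 had an AUC of 598 and the others reached down to 261.

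**Figure D4:**
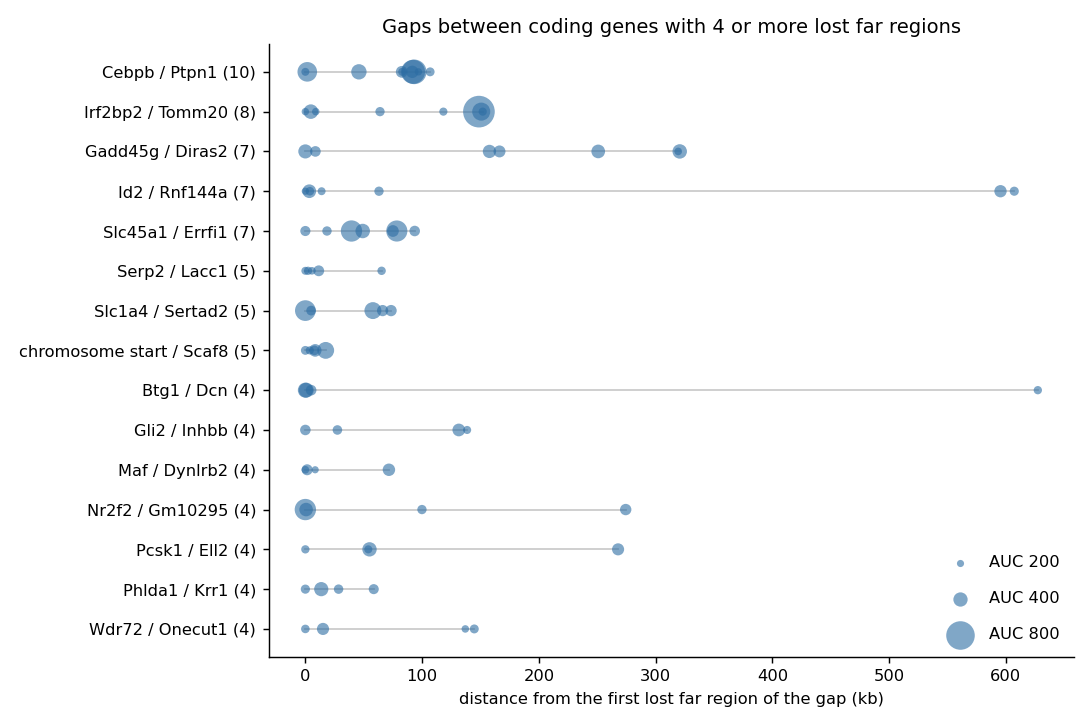
Far RCAs in the 15 gaps that hold at least 4, placed by distance in kb from the first far RCA of each gap, with dot area growing with the square of AUC and the number of far RCAs in brackets. The Irf2bp2 gap holds the largest dot, with an AUC of 887, and the Cebpb gap has the most dots, with 10.

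The numbers that the caller gave regions follow genome order. If every number stood for a region of the final call, the regions kept open in Alb-D2KO liver leave missing numbers. An RCA was next to another RCA in this order for 289 far RCAs, 67.2% (62.6 to 71.5), against 64.4% (63.3 to 65.4) of all RCAs. Both neighbours were RCAs for 22.6% (18.9 to 26.7) of far RCAs and 19.4% of all. The intervals of both pairs overlapped, so a difference in how often losses were neighbours was not detectable. Strictly between the first and last far RCA of the 15 richest gaps, 58 of 80 numbered control regions were RCAs. The 58 include the far RCAs by which these gaps were chosen. This share therefore cannot show whether losses came in blocks. In the Cebpb gap 6 of 17 numbered control regions from the first to the last far RCA were not RCAs. In the Phlda1 gap all 6 numbered control regions of that span were RCAs, 4 of them far. In the Nr2f2, Pcsk1, Maf and Onecut1 gaps the 4 far RCAs were the only numbered regions of the span. No numbered region of these spans was thus kept, but the regions counted are the far RCAs by which the gaps were chosen. The rest of these gaps was not counted.

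The 10 strongest far RCAs had AUCs from 562 to 887, and 6 of them have been described with their gaps. Of the other 4, chr15:36419764-36420567 had an AUC of 636 and lay between Rnf19a and Ankrd46, 57.1 kb from the latter. At 51.1 kb from Rxra, the gene of the retinoid X receptor with which thyroid hormone receptor and several hepatic nuclear receptors pair, chr2:27624636-27625335 had an AUC of 583. Next to Slc1a4, an amino acid transporter gene, chr11:20396003-20396804 had 580. The tenth, chr17:6841728-6842277 between Ezr and Rsph3b, had 562 and was repeat-masked over 80.4% of its length. The strongest regions were wide, and 9 of the 10 were wider than 389 bp, the upper quartile of the far class.

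Genes of 8 functional lists were looked for beside the far RCAs. Only a gene next to a gap of over 100 kb can have a far RCA in the interior of that gap, so counts are given over such genes. A gene counted here flanks the far RCA and need not be the coding gene nearest to it. Over all protein-coding genes 537 of 4568, or 11.8%, flanked a far RCA, and the median of their longest adjacent gap was 250 kb. Of hepatocyte transcription factors 9 of 16 did (56.2%, median gap 467 kb), with 28 far RCAs beside them. Of genes of glucose and insulin action 6 of 8 did (75%, 366 kb), of lipid and cholesterol genes 4 of 9 (44.4%, 216 kb), and of immediate early and stress genes 4 of 9 (44.4%, 505 kb). Of developmental transcription factors 11 of 42 did (26.2%, 730 kb), of markers of other liver cells 2 of 9 (22.2%, 276 kb), of thyroid hormone genes 1 of 7 (14.3%, 191 kb) and of plasma protein genes 0 of 4 (284 kb). The lists are small, gap length and the density of open chromatin differ between them, and their part in these shares was not tested. The lists were also chosen with earlier results of these data known. Shares above that of all coding genes are therefore a description and no independent sign of enrichment.

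Among hepatocyte transcription factors, the far RCAs beside Cebpb (10), Onecut1 (4), Foxa2 (3), Tbx3 (3), Rxra (2), Prox1 (2), Nfib (2), Bcl6 (1) and Gata6 (1) were at very different distances. Those beside Prox1, a factor of hepatocyte identity, lay 58.6 and 75.4 kb away. Those beside Foxa2, a pioneer factor of liver chromatin, lay 98.2 to 513 kb away. Their highest AUC, 339, was at the one 513 kb away, which lay nearer to Pax1, at 136 kb. Those beside Onecut1 lay 60.5 to 205 kb away with a highest AUC of 340 at 190 kb. The 3 beside Tbx3 clustered at 332 to 338 kb. Those beside Nfib lay 501 and 771 kb away and were nearer to Mpdz, at 347 and 76.4 kb. The AUC reached 364 beside Tbx3, and outside Cebpb and Rxra none of these genes had a far RCA above that value.

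Of the genes of glucose and insulin action, Irs1 and Irs2, the docking proteins of the insulin receptor, each had 2 far RCAs. Those of Irs1 were 63.9 and 73.6 kb away and those of Irs2 72.5 and 80.9 kb. Foxo1, the insulin-restrained activator of gluconeogenic genes, had 1 at 269 kb with an AUC of 327. Igf1, Pdk4 and Ppargc1a, which encode a growth factor, a kinase that restrains pyruvate oxidation and a coactivator of mitochondrial genes, had 1 each at 146, 93.5 and 300 kb. The signal in this group was modest, with no AUC above 327.

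Among lipid genes, Apob, the structural protein of hepatic lipoproteins, had a far RCA at 67.3 kb with an AUC of 295. Acsl1, which activates long-chain fatty acids, had one at 83.7 kb with an AUC of 285. Elovl6, a fatty acid elongase, had 2 at 60.1 and 60.7 kb, and Insig1, a sterol sensor partner, had 1 at 75.9 kb with an AUC of 215. Of the thyroid hormone genes the one with far RCAs was Dio3, whose product inactivates thyroid hormones. Its 4 far RCAs had AUCs of 206 to 276 and lay from 92.4 to 480 kb away, 3 of them between Rtl1 and Dio3 and 1 between Dio3 and Ppp2r5c. Of the 4, only the one 306 kb from Dio3, with 276, was above the median AUC of the far RCAs.

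Of the immediate early and stress genes, Gadd45g had 7 far RCAs, Klf6 2, Jun 1 and Myc 1. Those of Klf6, a Krüppel-like factor, had AUCs up to 439, and that of Jun, a subunit of AP-1, had 436 at 333 kb. The region beside Jun lay nearer to Fggy, at 172 kb. Of the developmental factors, Id2 had 7, Maf and Nr2f2 4 each, Sox9 3, Meis1 and Sox5 2 each, and Bcl11a, Dach1, Foxp1, Lmo4 and Sox6 1 each. The strongest of these after that of Nr2f2 was the one 694 kb from Dach1, with an AUC of 513. It lay nearer to Rpl36a-ps1, at 130 kb. Of the markers of other liver cells, Dcn, a matrix proteoglycan of stellate cells and fibroblasts, had 4 far RCAs, which it shares with Btg1, and Reln 1. From nuclei of whole liver, a region lost in a minor cell type cannot be told apart from one lost in part in hepatocytes.

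Motifs were counted in 300 bp around the summit of each region. The C/EBP motif TTGCNNAA was present in 114 far RCAs, 26.5% (22.6 to 30.9). It was present in 19.4% (17.3 to 21.7) of RCAs at 5 to 50 kb, 17.1% (14.7 to 19.9) within 5 kb, 20% (18.8 to 21.2) in gene bodies and 12.1% (10.6 to 13.8) in promoters, and in 10.8% of 32851 RefSeq promoters of the same length. The interval of the far class lay above those of the other 4. Among RCAs with a GC content of 45 to 55%, the share was 26.4% (21.5 to 31.9) in the far class, against 19.1% (16.5 to 22.0) at 5 to 50 kb, 17.8% within 5 kb, 21.6% in gene bodies and 20.2% (16.7 to 24.3) in promoters. With GC held in this range the far class was still the highest, but its interval overlapped those of the others except the class within 5 kb. In 150 bp around the summit the share was 14.7% (11.6 to 18.3) against 11.2% (9.57 to 13.1) at 5 to 50 kb, with overlapping intervals. The matches were not concentrated at the summit, since 41 of 128 lay within 50 bp of it (32.0%, against 33.9% over all RCAs).

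The CTCF core motif, CCA and AG separated by 2 bases followed after 2 more by GGC, went the other way. It was present in 30 far RCAs, 6.98% (4.93 to 9.78), against 16.9% (14.9 to 19.2) at 5 to 50 kb and 16.1% (13.7 to 18.8) within 5 kb. The share was 10.7% in gene bodies and 5.96% in promoters. CTCF is the architectural protein that anchors chromatin loops. Among RCAs of 45 to 55% GC the share was 6.59% (4.21 to 10.2) in the far class and 16.5% (14 to 19.2) at 5 to 50 kb, and in 150 bp around the summit it was 6.05% (4.16 to 8.71) and 15.3% (13.3 to 17.4). The far class was below the nearer intergenic classes in each of these counts. Of 30 matches in far RCAs 24 lay within 50 bp of the summit, so that where the motif was present it was near the point of highest accessibility. Far RCAs with the CTCF motif were narrower than those without, with a median width of 188 bp against 304 bp.

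**Figure D5:**
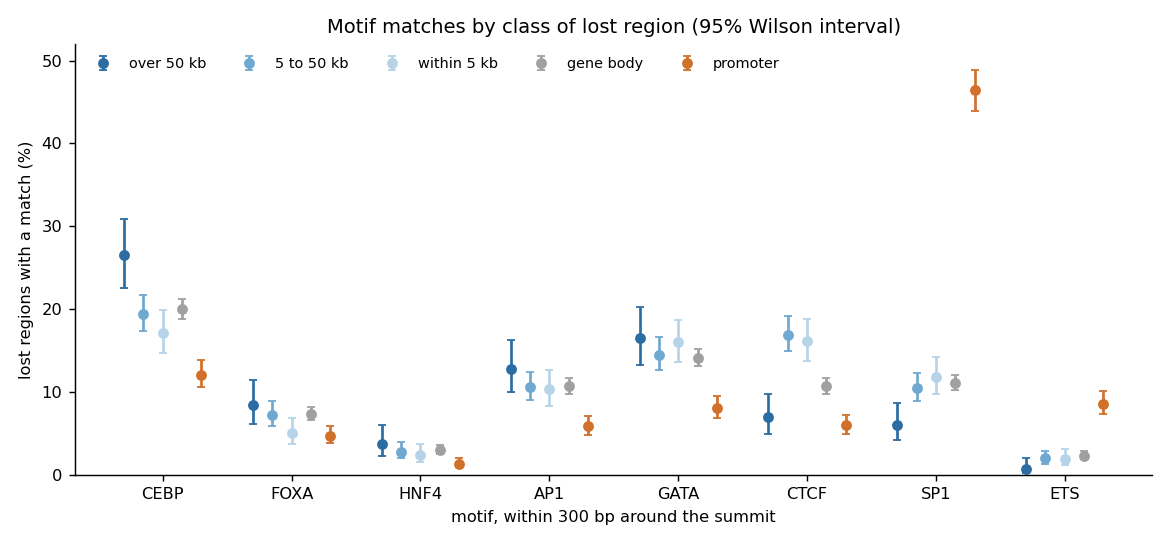
Share of lost regions with a match to each of 8 motifs in 300 bp around the summit, by class of region, with 95% Wilson intervals that cover counting error over regions. The far class is highest for C/EBP at 26.5% and, at 6.98%, lies below the nearer intergenic classes for CTCF.

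The FOXA motif TGTTTAC was present in 8.37% (6.11 to 11.4) of far RCAs and 6.66% of all RCAs, and the HNF4 motif in 3.72% (2.30 to 5.96) and 2.62%. HNF1 was at 2.09% and 1.22%, and DR1 at 2.56% and 2.23%. These shares overlapped in their intervals with those over all RCAs. In 150 bp around the summit FOXA was at 6.05% (4.16 to 8.71) in the far class, 3.88% (2.93 to 5.12) at 5 to 50 kb and 2.16% (1.35 to 3.43) within 5 kb, but among RCAs of 45 to 55% GC it was lower in the far class, 6.23%, than at 5 to 50 kb, 8.04%. At least 1 of the C/EBP, FOXA, HNF1, HNF4 and DR1 motifs was present in 161 far RCAs, 37.4% (33.0 to 42.1), against 28.0% (27.0 to 29.0) of all RCAs and 15% of RefSeq promoters. The count of this set is led by the C/EBP motif. DR4 was in 1 far RCA, 0.233%, and in 51 of 8021 RCAs (0.636%), too few to order the classes.

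Motifs common in promoters were rare. GGGCGG, the motif of SP and KLF factors, was present in 6.05% (4.16 to 8.71) of far RCAs, 10.5% (8.89 to 12.3) of those at 5 to 50 kb and 46.4% of promoter RCAs. Among RCAs of 45 to 55% GC these shares were 4.40% (2.53 to 7.52), 7.78% (6.10 to 9.87) and 13.8%. In 150 bp around the summit they were 3.49% (2.13 to 5.68), 6.11% (4.89 to 7.60) and 35.1%. In both counts the intervals of the far class and of the class at 5 to 50 kb overlapped. CCGGAAG, the ETS motif, was present in 3 far RCAs, 0.698%, and in 8.59% of promoter RCAs. The AP-1 motif TGANTCA was present in 12.8% (9.96 to 16.3), the GATA motif AGATAA in 16.5%, the glucocorticoid receptor motif ACANNNTGT in 10%, STAT5 in 6.51% and the NFI motif (TGGC and GCCA 5 bases apart) in 1.40% of far RCAs. Over all RCAs these were at 9.80%, 13.3%, 9.18%, 6.11% and 1.96%, which differs little. Far RCAs with a STAT5 match had a median AUC of 326 (28 regions) against 260 for the rest. They were also wider, with a median of 330 bp against 298 bp, and AUC sums over width. This was 1 of 14 such splits, and the ETS split, on 3 regions, differed more, at 495 against 261. These differences were not tested. In all, 310 far RCAs held at least 1 of the 14 motifs, 23 held 3 or more, and 120 held none.

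The 25 far regions open only in Alb-D2KO liver had lower AUCs, from a separate call whose AUC is not scaled to that of the control call. Their AUCs ran from 205 to 385 with a median of 237, and 1 reached 300. The strongest, chr4:145407372-145408317 between Tnfrsf8 and Zfp990, had an AUC of 385, a width of 946 bp and a near-identical copy. Among the next were 287 beside Scaf8, 278 between Fgf9 and 1700129C05Rik, 271 beside Olfr161 and 267 beside Zfy1. Repeats covered more than 50% of 6 of the 25 regions (24.0%, 11.5 to 43.4), and 3 had a near-identical copy. In addition, 4 of the 25 began within the first 4 Mb of a chromosome, against 11 of the 430 far RCAs. A further 19 had AUCs from 205 to 259, between Tmpo and Nedd1, Sfmbt2 and Prkcq, Rap2a and Ipo5, Gm21863 and Asap2, Shcbp1 and Slc10a2, Nphp4 and Ajap1, Mtpn and Chrm2, Adgrl2 and Adgrl4, Tars and Npr3, Smad2 and Skor2, Uchl5 and Rgs2, Rbms1 and Tank, Ttc8 and Foxn3, Veph1 and Shox2, Vwde and Tmem168, Lrrtm4 and Gcfc2, Sh3bgrl2 and Elovl4, Klf13 and Trpm1, and before Gdi2.

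In 8 gaps both lists had a far region, 3 of them between a chromosome start and the first coding gene (Gdi2, Olfr161 and Scaf8). The others were Adgrl2 to Adgrl4, Klf13 to Trpm1, Lrrtm4 to Gcfc2, Nphp4 to Ajap1 and Rbms1 to Tank. None of these 5 held more than 2 far RCAs. None of the hepatocyte transcription factors, nor of the glucose, lipid or thyroid hormone genes named above, flanked a far region open only in Alb-D2KO liver. With 25 such regions against 430, few would be found at the same rate per region.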

How the data were processed

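ATAC-seq was done on nuclei of frozen adult liver of 4 control and 4 Alb-D2KO mice. The authors removed adapters with NGmerge, aligned the paired reads to mm10 with BWA 0.7.17, filtered duplicate, chimeric and low-quality alignments, and called open regions with Genrich 0.6 on grouped libraries without regions blacklisted from calls on single samples. They then kept, by overlap subtraction, the regions of one genotype without a counterpart in the other. The deposited signal is the area under the −log10 p curve of a region (AUC). The deposited score is that area scaled by width and was not used further. The −log10 q deposited by the authors is that of the summit, and was used as a filter. The authors' columns of start, end and summit offset place each region.

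From there, regions were placed on GENCODE M21 (mm10), which is not the release that the methods name. Sequences were read from GRCm38 with samtools 1.23.1 and pysam 0.24.0, and BLAST 2.17.0 was used to look for copies (95% identity and 80% of the length, or more). Promoters for comparison came from RefSeq. The scripts were tested on simulated data. With pooled calls there is no error between animals for any region, and the 95% intervals (Wilson) reflect only how many regions were counted. Regions named were the 10 strongest, the 5 farthest, those in gaps with at least 4, 5 on each side of the distance limit, the strongest beside each list gene, the strongest with each printed motif, and all far regions of the reverse list. Of these, 1 just outside the limit and 1 of the reverse list are not reported here. The members and the gene lists were chosen with earlier results of these data known. The symbol C5 was not found in the annotation. Alternatives were other distances, gene sets, windows and filters, and GC bands and the strong-region count of list genes were added after seeing the data.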

Additional observations from a re-analysis of the deposited data

How the results depend on the processing

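Of 115 alternatives computed over counts, shares and medians, 78 stayed within 1.5 times the reported count or within the 95% interval of the reported share or median, and 37 moved out of it. Most moved by construction. The 430 far RCAs became 756 at over 25 kb, 207 at over 100 kb, 82 at over 200 kb, 98 when genes of every type were counted, 147 with an AUC of at least 300 and 260 with a summit −log10 q of at least 3. The 25 far regions open only in Alb-D2KO liver became 15, 11, 7, 1 and 15 under the same settings from 100 kb on. The far share of intergenic RCAs, 17.6%, became 4.02% with genes of every type, 15.8% with the AUC filter and 15.5% with the q filter. With the AUC filter the median AUC was 363, the median width 376 bp, and the share next to another RCA 74.1%. At over 100 kb that share was 61.8% and the median GC 48.1%. In 150 bp around the summit the motif shares fell to 14.7% for C/EBP, 6.05% for FOXA and for the glucocorticoid receptor, 0.930% for HNF1, 1.16% for DR1, 0% for DR4, 3.49% for SP1, 7.91% for AP-1, 0.233% for ETS, 8.37% for GATA and 2.79% for STAT5. Without a mismatch DR1 was at 0.465% and DR4 at 0%. With the AUC filter DR1 was at 1.36%, DR4 at 0%, CTCF at 4.76% and STAT5 at 12.2%. Of the 6 glucose and insulin genes, 2 flanked a far RCA with an AUC of at least 300. Setting the start window at 1000 bp, using the summit base, searching motifs in the whole region, merging within 100 bp, leaving out near-identical copies or unplaced scaffolds, and joining within 10 or 100 kb moved none of these results out of range.

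No paired analysis was possible because the calls are pooled and hold no value per library, and for the same reason no replicate was left out. Depth per library is unknown, so how many losses depend on it was not tested, and regions near the AUC minimum of 200 are the least certain.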
